A study of Bos taurus with 2 samples.

Results

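The genes described are the nuclear-encoded subunits of the oxidative phosphorylation complexes in bovine testis. Members were the non-control probes whose gene name begins with NDUF, UQCR, ATP5, COX4, COX5, COX6, COX7 or COX8, or is SDHA, SDHB, SDHC, SDHD, CYC1 or CYCS. The rule took 231 spots and 213 probes for 91 gene names, out of 32428 gene names with a usable spot on the array. Testis RNA came from 3 crossbred bulls, Holstein Friesian crosses with 50 to 75% exotic inheritance, and from 3 Zebu bulls of the Tharparkar breed. All bulls were 24 months old. The RNA was pooled in equal amounts within each group, labelled with Cy3, and hybridized to 1 array per group on the same slide. The comparison asks how transcript abundance in the testis differs between crossbred and Zebu bulls. With 1 array per group no difference could be checked in a replicate and no test was made.

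Oxidative phosphorylation takes place at the inner mitochondrial membrane. Complex I accepts electrons from NADH and complex II from succinate, complex III passes them to cytochrome c, and complex IV hands them to oxygen. Complex V, the ATP synthase, makes ATP from the proton gradient that complexes I, III and IV build. Most subunits are encoded in the nucleus, and a smaller number in the mitochondrial genome. Several nuclear subunits exist as tissue isoforms from separate genes, and germ cells are known for testis forms of cytochrome c and of complex IV subunits.

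Every difference is the crossbred minus the Zebu value of the log2 signal, on a scale where the 75th percentile of each array is 0. A gene was read from its brightest probe. By this probe all 91 genes stood well above background in both groups, so no member dropped out through a filter on dim signal. The median difference over the 91 genes was 0.07, with quartiles of -0.31 and 0.35, but the median was -0.09 after quantile normalization of the arrays and -0.005 with every probe counted on its own. Among all 24751 detected gene names the median was -0.06, and in the brightest 6188 of them it was 0.01. After quantile normalization the median over all detected names was -0.08. The difference was below 0 in 41 of the 91 genes, while 53.1% of the detected names were below 0.

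None of the 91 genes reached a log2 difference of 1.5 in size, which is 2.83-fold. In the background, 7.12% of the detected gene names were higher in crossbred testis by that amount and 2.92% were lower. Under normexp background correction, these background counts moved from 1762 higher and 722 lower to 1030 and 169. At a linear fold of 1.5, which is 0.585 on the log2 scale, 7 members were higher and 6 were lower, or 7.69% and 6.59%. The background shares at that fold were 21.4% higher and 22.2% lower. The split of members at that fold was 3 higher and 11 lower after quantile normalization, and 5 higher and 7 lower under normexp. All detected names had 5290 higher and 5504 lower on the main scale, 5151 and 5705 after quantile normalization, and 4075 and 3552 under normexp. In the brightest 6188 detected names, the shares at a linear fold of 1.5 were 20.5% higher and 14.1% lower.

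**Figure D1:**
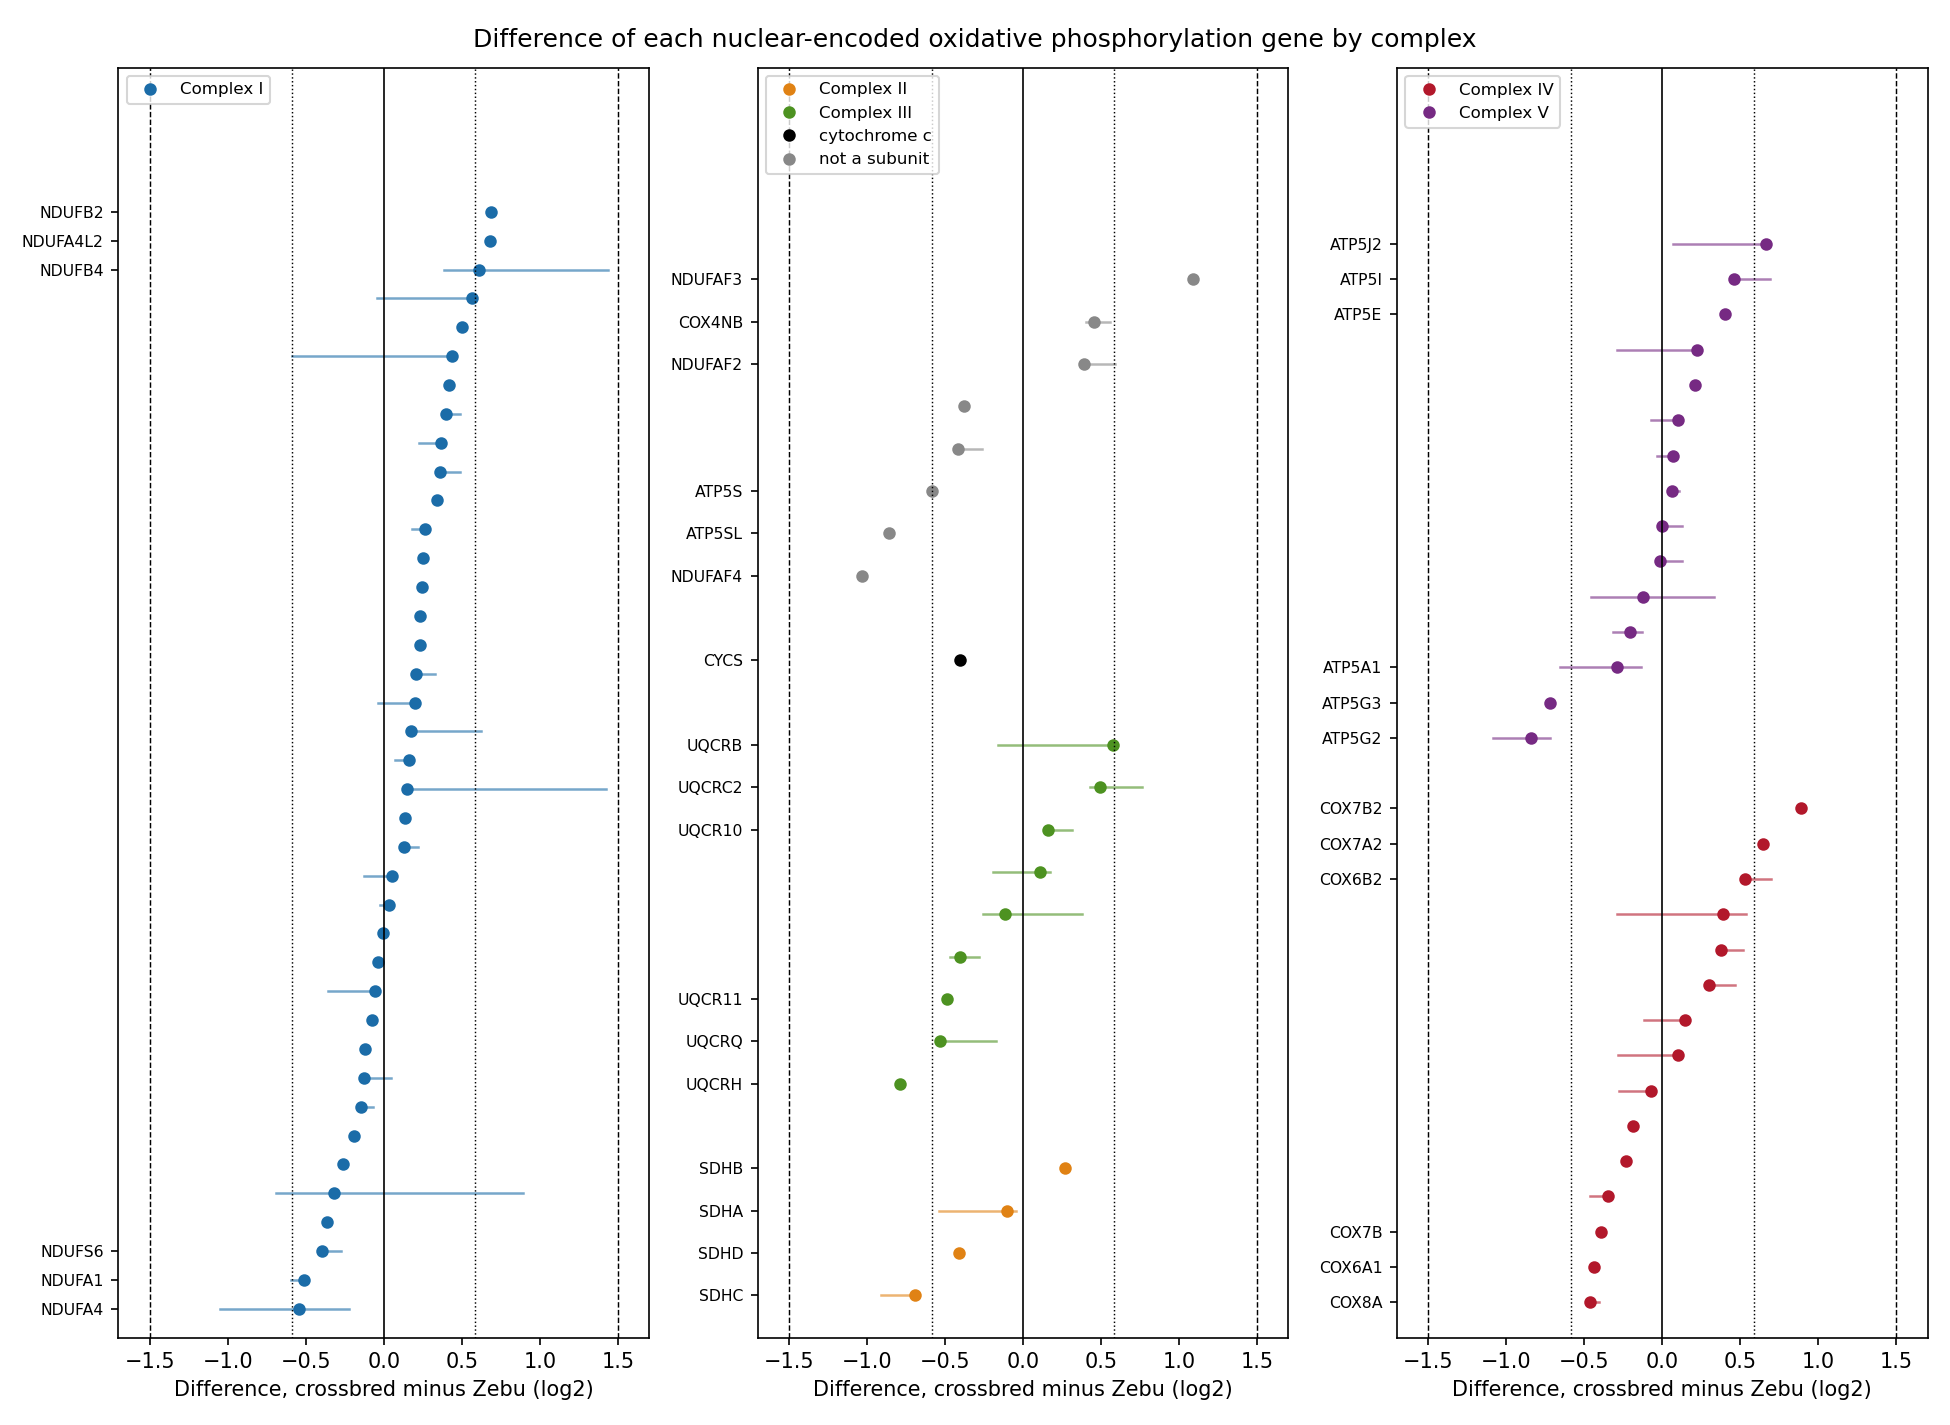
Difference between crossbred and Zebu (log2) for each of the 91 genes, grouped by complex, with the 3 highest and 3 lowest genes of each group named. Points are the brightest probe, bars span all probes of a gene well above background on both arrays outside the dark patch, dotted lines mark a linear fold of 1.5 and dashed lines a log2 difference of 1.5. The points lie between -1.03 (NDUFAF4) and 1.09 (NDUFAF3).

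The SD between replicate spots of a probe was 0.33 for a difference, over 5960 probes with several spots. Over the 18 member probes with several spots it was 0.17. These values cover spotting and scanning and leave out pooling, labelling and the animals. The difference was smaller than 0.33 in 45 of the 91 genes.

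**Figure D2:**
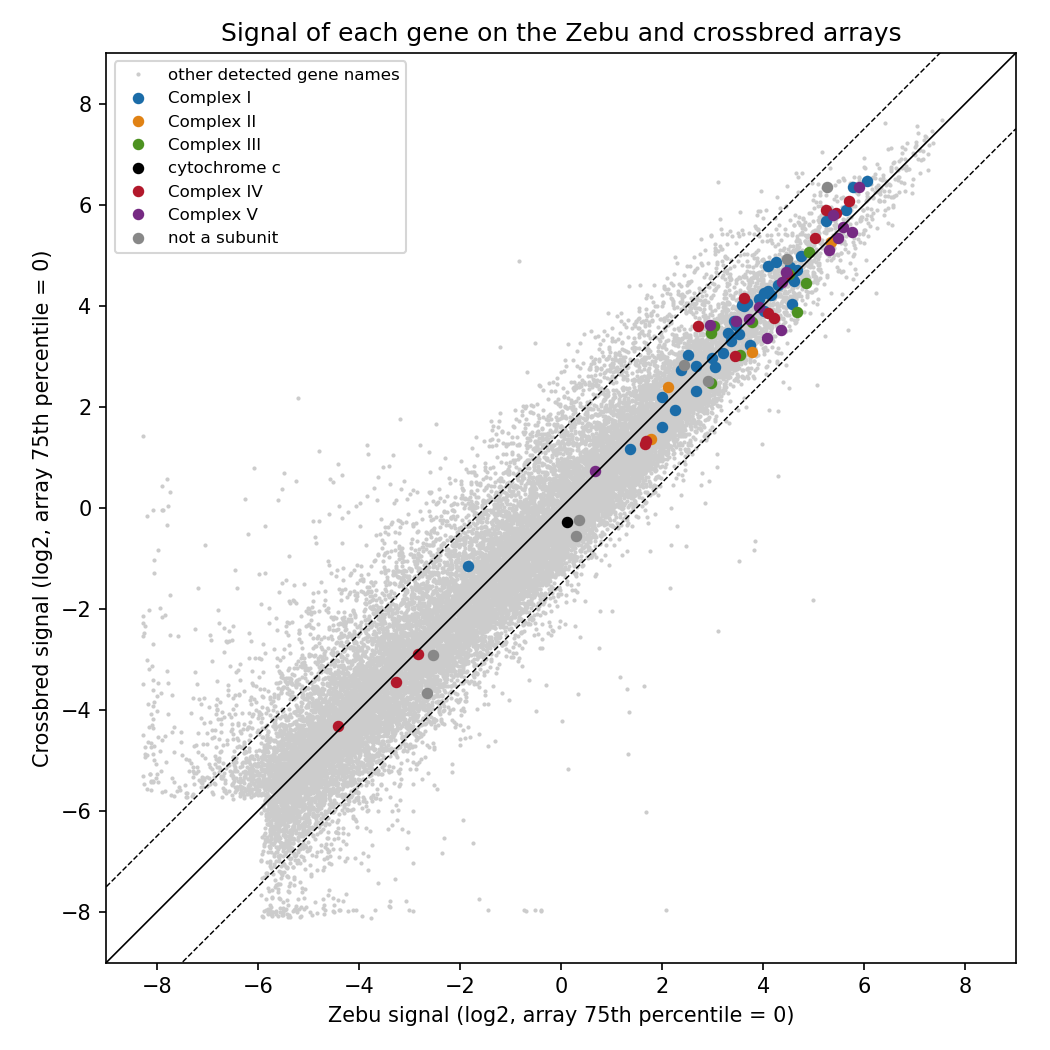
Normalized log2 signal of each detected gene on the Zebu array (x axis) and the crossbred array (y axis), where 0 is the 75th percentile of an array. Grey points are other gene names, coloured points are the members by complex, the solid line marks equal signal and the dashed lines a log2 difference of 1.5. All 91 members lie between the dashed lines.

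Complex I had 39 member genes, of which 25 were above 0 and 14 below. Their median difference was 0.16, and it was 0.02 after quantile normalization. On the main scale 3 genes passed a linear fold of 1.5, all higher in crossbred testis, namely NDUFB2, NDUFA4L2 and NDUFB4. After quantile normalization 1 gene was higher at that fold, NDUFA4L2, and 2 were lower, NDUFA4 and NDUFA1. Under normexp 1 was higher, NDUFB2, and 1 lower, NDUFA4, so none of the 3 genes passed on every scale. NDUFB2, an accessory subunit of the membrane arm, was at a log2 signal of 4.79 in crossbred and 4.10 in Zebu testis. Its difference of 0.69 was the largest of the complex on the main scale. After quantile normalization NDUFB2 was at 0.49, against 0.67 for NDUFA4L2 and -0.74 for NDUFA4. Under normexp NDUFB2 was at 0.61 and NDUFA4 at -0.75. NDUFA4L2, a relative of NDUFA4 known for its induction by low oxygen, was at -1.15 in crossbred and -1.83 in Zebu testis, a difference of 0.68. NDUFA4L2 and NDUFA4 were kept among the 39 genes of complex I by their names. NDUFA4 itself, now counted as a subunit of complex IV, stood at the other end. It was at 4.03 and 4.57 (difference -0.54), and all of its 4 probes were below 0.

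NDUFA1, a small membrane subunit encoded on the X chromosome of mammals, had the next lowest difference, at -0.51. The subunits that carry out the redox chemistry did not share a direction. NDUFV1, which binds NADH and the flavin, was at 4.42 in crossbred and 4.29 in Zebu testis, a difference of 0.13 that was -0.09 after quantile normalization. NDUFS1, which holds iron-sulfur clusters of the electron path, was at 1.93 and 2.25, a difference of -0.32. NDUFV2, which also carries an iron-sulfur cluster, was at 6.46 and 6.06, a difference of 0.40. By name, the 15 NDUFA genes had a median difference of 0.25, which was 0.05 after quantile normalization and -0.01 with the mean of the probes of each gene. The 11 NDUFB genes had a median of 0.23, and 0.03 after quantile normalization. The median of the 8 NDUFS genes was 0.02 and turned to -0.19 after quantile normalization, to -0.01 under normexp and to -0.02 with the mean of probes. The 3 NDUFV genes had a median of 0.20, and 0.15 after quantile normalization. The 2 NDUFC genes had a median of 0.27, and 0.13 after quantile normalization. The sizes of the medians by name thus depend on the scaling, and for NDUFS the sign does as well.

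Complex II is succinate dehydrogenase, an enzyme that the respiratory chain shares with the citric acid cycle. Of its 4 subunits, 3 were below 0, and the median difference was -0.26. The median was -0.35 after quantile normalization and -0.41 with every probe counted on its own. SDHA, the flavoprotein, was at 5.25 in crossbred and 5.35 in Zebu testis, a difference of -0.10. Its other 3 probes ran from -0.54 to -0.04. SDHB, the iron-sulfur protein, was at 2.38 and 2.11, a difference of 0.27. SDHC and SDHD anchor the enzyme in the membrane. SDHC was at 3.09 and 3.78, a difference of -0.69 that passed a linear fold of 1.5, and its other 2 probes gave -0.91 and -0.70. SDHD was at 1.36 and 1.78, a difference of -0.41.

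Complex III had 9 member genes, 4 above 0 and 5 below, with a median difference of -0.11. The median was -0.26 after quantile normalization, with 2 genes above 0, and -0.02 with the mean of the probes of each gene. UQCRH, the hinge protein that helps dock cytochrome c, was at 3.88 in crossbred and 4.67 in Zebu testis. Its difference of -0.79 passed a linear fold of 1.5 and rests on 1 probe. No other gene of the complex passed on the main scale, but UQCRQ (-0.65) and CYC1 (-0.60) did after quantile normalization. UQCRQ followed at -0.53. UQCRB and the core protein UQCRC2 stood at the upper end, at 0.58 and 0.49, but a separate probe of UQCRB gave -0.16. Of the subunits close to the redox centres, CYC1, the haem protein cytochrome c1, was at 4.44 and 4.84, a difference of -0.40. UQCRFS1, the Rieske iron-sulfur protein, had a difference of -0.11, and the mean of its probes was 0.00. UQCRC1, a core protein, had a difference of 0.11, which turned to -0.08 after quantile normalization and to -0.02 as the mean of its probes. Somatic cytochrome c, CYCS, was at -0.28 in crossbred against 0.13 in Zebu testis, a difference of -0.40. CYCT, the testis form of cytochrome c, lies outside the member rule and was at 1.41 and 1.08, a difference of 0.33.

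Complex IV, cytochrome c oxidase, had 15 member genes, 8 above 0 and 7 below. Their median difference was 0.10, but it was -0.04 after quantile normalization and -0.09 with the mean of the probes of each gene. COX7B2, a testis isoform, was at 3.59 in crossbred and 2.70 in Zebu testis, a difference of 0.89, on this scale the largest of any subunit. After quantile normalization ATP5G2 (-1.01), UQCRH (-0.96) and ATP5G3 (-0.89) were larger in size than COX7B2 (0.78). COX7B2 rests on 1 probe. Its ubiquitous counterpart COX7B was at 1.26 and 1.66, a difference of -0.39. The pair is shown because the genes are close relatives with opposite signs, so the bases that each probe reads matter. Each line gives 30 bases of a probe of 60 bases, and capitals mark the run of 12 bases that both probes share.
COX7B: cccagctgatttaatactGAATTGTTTCAA
COX7B2: tgtaaaacaGAATTGTTTCAAggtcaattt
On the HGSC Btau_3.1 build, the array annotation places the COX7B2 probe at chr6:67722788-67722847 on the minus strand. It places the COX7B probe at chr17:61163729-61163788 on the plus strand, although COX7B is an X-linked gene in mammals. The exon or UTR that each probe lies in was not looked up, because no annotation of that build was used here. Whether either probe also matches the transcript of the other gene was not tested.

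COX6B2, another testis isoform, was at 4.15 in crossbred and 3.62 in Zebu testis (difference 0.53), and its other probe gave 0.70. Its ubiquitous counterpart COX6B1 was at 5.33 and 5.03, a difference of 0.30. The remaining families did not share a direction. COX7A2, the form found in most tissues, was at 5.89 and 5.24 (difference 0.64), and its other 2 probes gave 0.63 and 0.64. COX7A2 was at 0.51 after quantile normalization, within a linear fold of 1.5. COX7A1, the muscle form, had a difference of -0.34. COX4I1, the regulatory subunit found in most tissues, was at 6.07 and 5.69 (difference 0.37), and all of its 4 probes lay between 0.37 and 0.52. COX4I2, known from lung, was at -3.45 and -3.27, a difference of -0.18.

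COX6A1 and COX8A, the forms found in most tissues, had differences of -0.44 and -0.47, and COX8A was at -0.64 after quantile normalization, past a linear fold of 1.5. Their muscle counterparts COX6A2 and COX8B were dim, with log2 signals from -4.41 to -2.82. The differences were 0.10 for COX6A2, -0.09 as the mean of its probes, and -0.07 for COX8B. Among the 3 testis isoforms measured, COX6B2, COX7B2 and CYCT, all were above 0, with a median difference of 0.53. Of the 7 ubiquitous forms 3 were above 0, and of the 4 muscle or lung forms 1 was. No probe was found under the name COX8C, a further testis isoform.

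**Figure D3:**
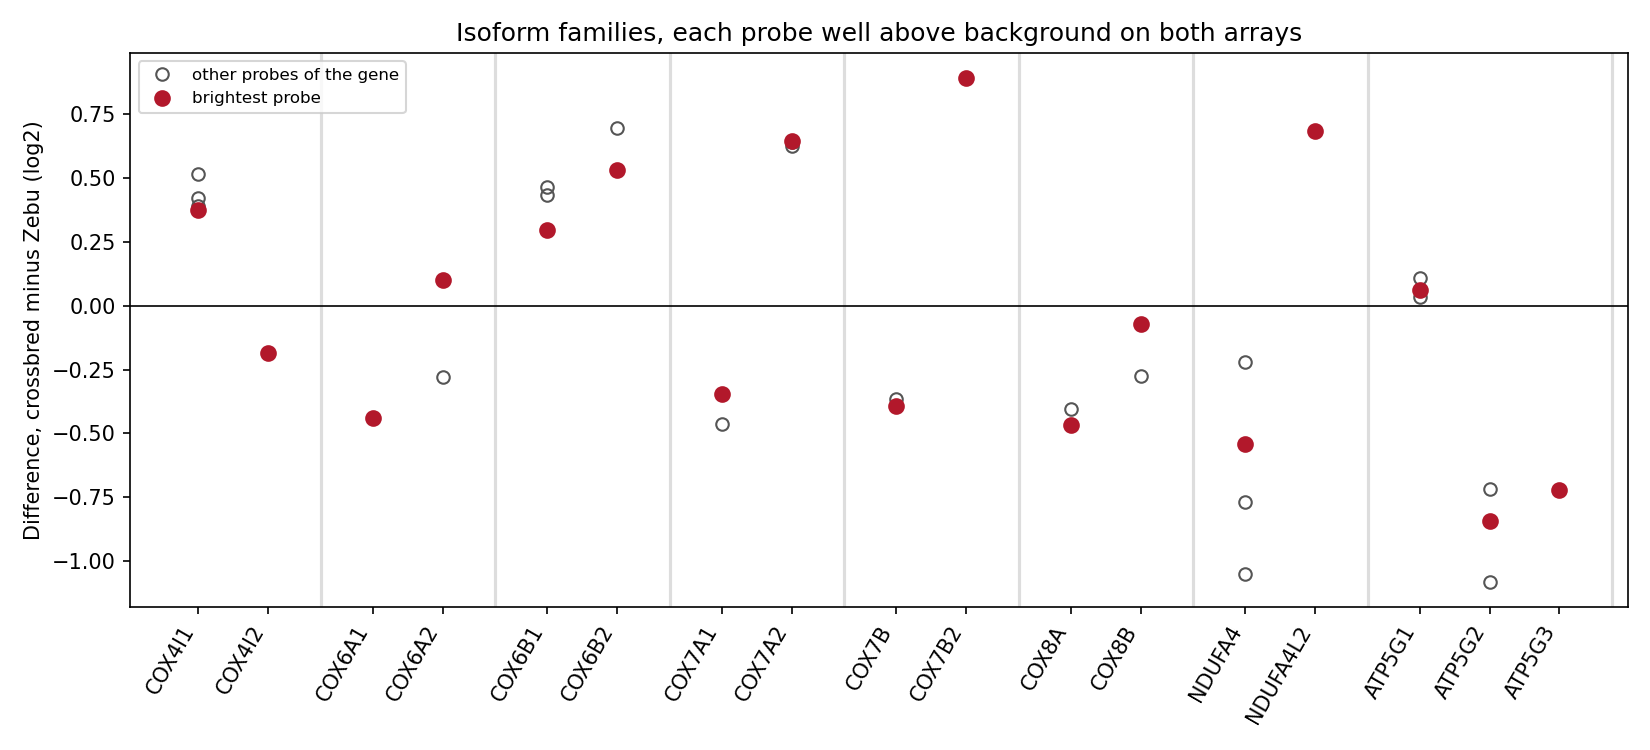
Difference between crossbred and Zebu (log2) for each probe of the isoform families, with the brightest probe of a gene filled and its other probes open. COX7B2 lies at 0.89 and COX7B at -0.39, whereas COX6B1 and COX6B2 are both above 0. ATP5G1 lies at 0.06 on this scale and at -0.12 after quantile normalization, against -0.84 for ATP5G2 and -0.72 for ATP5G3.

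Complex V had 15 member genes, 9 above 0 and 6 below. The median difference was 0.06, but it was -0.12 after quantile normalization and -0.02 with every probe counted on its own. ATP5G2 and ATP5G3, genes of the c-ring, the rotor in the membrane, had the lowest differences, while the third c-ring gene, ATP5G1, lay near 0. ATP5G1, ATP5G2 and ATP5G3, now named ATP5MC1, ATP5MC2 and ATP5MC3, encode the same mature c subunit with different import sequences. ATP5G2 was at 3.51 in crossbred and 4.35 in Zebu testis (difference -0.84), and its other probes gave -0.72 and -1.08. ATP5G3 was at 3.36 and 4.08, a difference of -0.72. ATP5G1 was at 3.97 and 3.91, a difference of 0.06 that was -0.12 after quantile normalization. Its 3 probes, which overlap in the transcript, lay between 0.03 and 0.11. The array annotation nevertheless places the brightest of them apart from the other 2 on chromosome 19. Because the coding parts are alike, the first 30 bases of each probe are given.
ATP5G1: ggccatgcccggtgctggagtgtgctaacc
ATP5G2: ggtggcctttctcatcctcttcgccatgtg
ATP5G3: tgtatcttactgtgactccgaaaactatag
No run of more than 6 bases was shared between any of these probes over their 60 bases. That compares probe with probe only. Whether a probe also matches the transcript of another c-ring gene was not tested. The probes shown lie at chr19:45112280-45112340 on the minus strand, chr5:29327190-29327249 on the plus strand and chr2:22317525-22317584 on the plus strand of HGSC Btau_3.1, in the same order.

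The subunits of the F1 head, the catalytic part of the ATP synthase, did not share a direction. ATP5A1, the alpha subunit, was at 5.46 in crossbred and 5.75 in Zebu testis (difference -0.29), and all of its 6 probes were below 0. ATP5B, the catalytic beta subunit, was at 5.35 and 5.47, a difference of -0.13. Its 5 probes ran from -0.46 to 0.33. ATP5E, the epsilon subunit, had a difference of 0.40, and its other probe well above background gave 0.42. The 5 genes of the F1 head had a median difference of -0.13, and -0.30 after quantile normalization. The 7 genes of the stalks and of the membrane part outside the c-ring had a median of 0.21, with 6 of them above 0. After quantile normalization their median was 0.02, with 4 above 0. ATP5J2 was highest among them, at 3.62 and 2.96, a difference of 0.66, although its other probe gave 0.07 and its value was 0.55 after quantile normalization. ATP5I followed with 0.46, and its 3 probes lay between 0.46 and 0.69.

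The name rule also took 8 genes that are not subunits, with a median difference of -0.40, which turned to 0.06 with every probe counted on its own. They held both extremes of the 91 genes. NDUFAF3, an assembly factor of complex I, was at 6.35 in crossbred and 5.26 in Zebu testis, a difference of 1.09. NDUFAF4, which acts with it in the same assembly step, was at -3.67 and -2.65, a difference of -1.03, and -0.63 under normexp background correction. Both rest on 1 probe. ATP5SL, now named DMAC2, had a difference of -0.86. COX4NB, now named EMC8, is a subunit of the membrane complex that inserts proteins at the endoplasmic reticulum and a neighbour of COX4I1. Its difference was 0.46. COX7A2L, a factor of respiratory supercomplexes, had a difference of -0.42. Without these 8 names the median of the 83 subunits was 0.10, and -0.08 after quantile normalization.

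Probes of the same gene gave a further reading of each difference within the same arrays. Of the 63 genes with several probes well above background on both arrays, 45 had all probes on the same side of 0 and 18 did not. Many probes of a gene overlap, so the brightest probe was set beside the next brightest probe with which it shares no stretch of sequence. This was possible for 51 genes, or 49 outside the dark patch described further on. Over these 49 genes, the sign was the same in 37 and the median gap between the 2 differences was 0.15. Across the 49 genes, Pearson's r between the differences was 0.66 and Spearman's rho was 0.68. Genes are not independent replicates, and both probes were read from the same arrays.

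**Figure D4:**
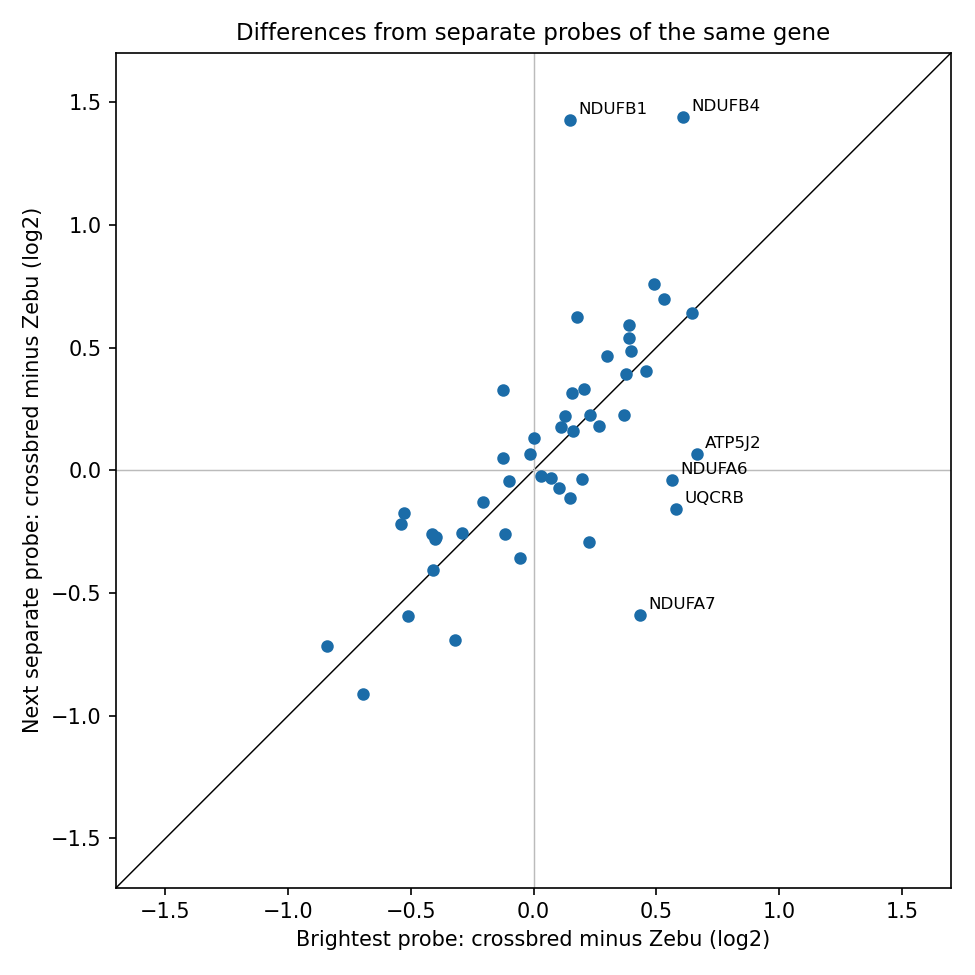
Difference between crossbred and Zebu (log2) from the brightest probe (x axis) and from the next separate probe (y axis) of 49 genes, with the line of equality. Genes more than a linear fold of 1.5 apart are named. NDUFB1 and NDUFA7 lie farthest from the line, with gaps of 1.28 and 1.03, and the 2 probes of NDUFB1 are placed on opposite strands.

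The value of a gene can depend on which probe is read, as these examples of large gaps or opposite signs show. NDUFB1 was at 0.15 by its brightest probe and at 1.43 by the other, which the array annotation places on the opposite strand. Whether that probe reads NDUFB1 was not tested. NDUFB4 was at 0.61 by its brightest probe and at 1.44 by a dimmer probe that spans an intron, and its remaining probes gave 0.38 and 0.52. NDUFA7 was at 0.44 by its brightest probe and at -0.59 by a dim one. NDUFA6 was at 0.57 by its brightest probe and at -0.04 by the other, and ATP5O, a stalk subunit, at 0.23 and -0.29. COX7C, a small subunit of complex IV, was at 0.39, and its other probes gave 0.54 and -0.29. For NDUFS1, 4 of 5 probes were below 0, and the probe nearest the 3′ end gave 0.89. Array annotation placed probes of COX5B, COX6B1 and NDUFA3 on more than 1 chromosome, and for COX5B and NDUFA3 the brightest probe was the one placed apart. The differences of those 2 probes were 0.15 and -0.06.

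The crossbred array holds a dark patch in rows 54 to 99 and columns 35 to 46, and a smaller bright patch farther down. In the dark patch, the median difference over the 404 spots that Zebu testis had well above background was -1.38, against -0.09 over such spots elsewhere. No member spot lay in the bright patch, and 4 lay in the dark patch. They belong to NDUFA10, CYCS, NDUFA3 and NDUFA5. These include the only 2 member probes, among 199 well above background on both arrays, that passed a log2 difference of 1.5 in size.

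NDUFA10, an accessory subunit of complex I, was at -3.09 in crossbred and 1.68 in Zebu testis by its probe in the patch, a difference of -4.77. Its probe outside the patch was at 1.17 and 1.36, a difference of -0.19. The CYCS probe in the patch was at -3.13 and -0.76, a difference of -2.38, against -0.40 for the probe outside. The first 30 bases of these probes are given so that the readings can be told apart.
NDUFA10, outside the patch: atgagtgagaaatgtgaggttctacagtac
NDUFA10, in the patch: ttgcacaaactgaggatgctggttcaggat
CYCS, outside the patch: tgtgttcattagcctgttaaggcaaggatt
CYCS, in the patch: ttaagaagaagggagagagggaagacttga
The CYCS probes lie at chr4:73534788-73534847 and chr4:73534307-73534366 on the plus strand of HGSC Btau_3.1, and the NDUFA10 probes on a contig without a chromosome. The probes of NDUFA3 and NDUFA5 in the patch were well above background on neither array, and no value was read from them.

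**Figure D5:**
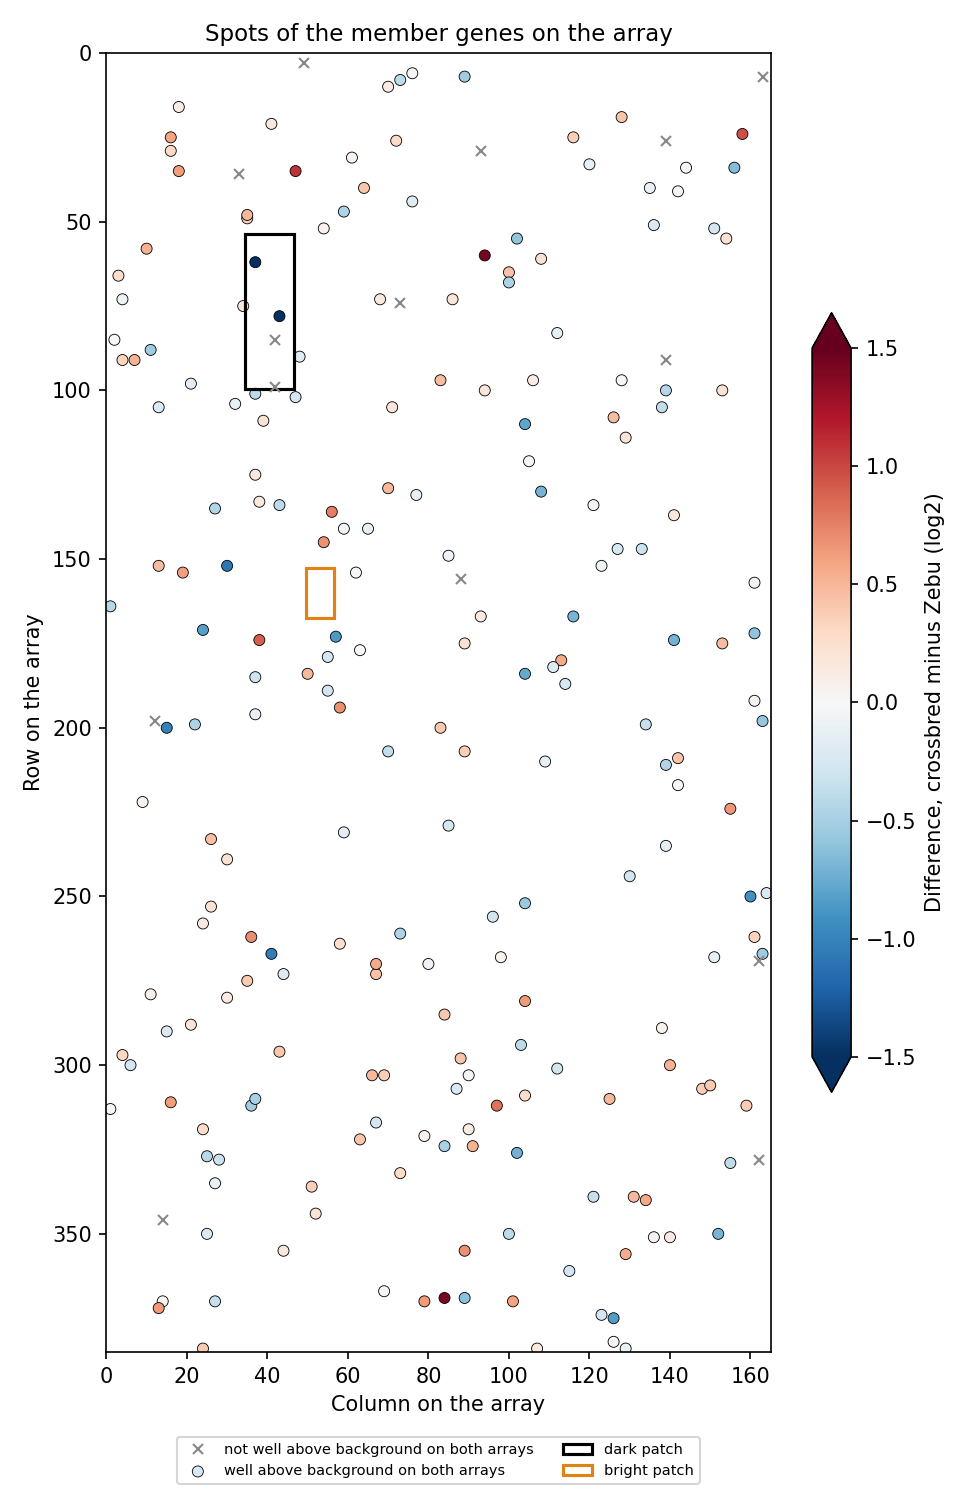
Position of the member spots on the array by row and column, coloured by the difference between crossbred and Zebu (log2), with the colour scale ending at 1.5 in either direction. Crosses are spots not well above background on both arrays, and rectangles are the marked patches. The CYCS and NDUFA10 spots in the dark patch, at -2.38 and -4.77, lie beyond the lower end of the scale.

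Other genes of the pathway were read in the same way. A list of assembly factors also held ATPIF1, an inhibitor of the ATP synthase, and USMG5, a subunit of it. The NDUFAF genes were counted with the members instead. Of this list, 31 of the 32 genes on the array were detected, with a median difference of -0.23. At a linear fold of 1.5, 4 were higher, USMG5 (0.586) among them, and 4 were lower. That is 12.9% in either direction, beside 21.4% and 22.2% of all detected names. Among the 4 lower is COX18, a factor of complex IV that was well above background in Zebu testis only. It was at -6.07 in crossbred and -5.22 in Zebu testis. With the crossbred value raised to the bound of -5.78, COX18 did not pass a linear fold of 1.5. ATPAF2, which helps assemble the F1 head, had a difference of 1.31 by its brightest probe and 0.70 by its other probe. LYRM7, a complex III factor, had a difference of 1.08. TIMMDC1, a complex I factor, had a difference of -1.17 by its brightest probe and -0.35 by its other probe. BCS1L, which inserts the Rieske protein, had a difference of -0.90. Of 15 genes of mitochondrial gene expression and biogenesis, 1 was higher and 3 were lower at that fold, or 6.67% and 20%, which are not above the shares of all detected names. The median was -0.29. TFAM, which packages and transcribes mitochondrial DNA, was at 4.63 in crossbred and 2.87 in Zebu testis, a difference of 1.76 from 1 probe. PPARGC1A, a coactivator of mitochondrial biogenesis, was dim at -5.39 and -3.74 by its brightest probe, a difference of -1.65, but its other probe gave 0.36.

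A list of 22 genes held the citric acid cycle, pyruvate dehydrogenase, pyruvate carboxylase (PC) and the cytosolic enzymes ACO1 and MDH1. Of these genes, 2 were higher and 7 lower at a linear fold of 1.5, or 9.09% and 31.8% beside 21.4% and 22.2% of all detected names. The median difference was -0.33. OGDH, a subunit of the oxoglutarate dehydrogenase complex, is among the 7 with -0.78, but its other probe gave 1.88. The cytosolic MDH1 is also among the 7, with -0.71. PDHA2, the testis form of the pyruvate dehydrogenase alpha subunit, was at 4.31 and 3.03, a difference of 1.28. Its somatic counterpart PDHA1 was at 0.72 and 1.42, a difference of -0.70. The 11 mitochondrially encoded subunits on the array, out of 13 listed, had a median difference of -0.05, and -0.13 after quantile normalization. By the brightest probe none of them passed a linear fold of 1.5. Dimmer probes passed it for ND1 (-1.31) and COX2 (0.92).

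Markers of testis cell types differed between the groups, and the values are given over all markers of a list that the array holds. In bulk tissue, fewer cells of a type and less RNA per cell cannot be told apart. Spermatid markers were above 0 in 12 of 12, with a median difference of 1.80, and their summed linear signal, in units of the 75th percentile of an array, was 882.5 in crossbred and 406.4 in Zebu testis. PRM1 was the brightest of them on average and in Zebu testis, and ODF2 in crossbred testis. Spermatocyte markers were above 0 in 8 of 8 on the array, out of 11 listed, with a median of 0.45 and sums of 49.3 and 36.2, TEX101 being brightest. Spermatogonial markers were below 0 in 6 of 7 on the array, out of 8 listed, with a median of -0.89 and sums of 27.3 and 41.0, UCHL1 being brightest.

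Somatic markers were mostly below 0. Leydig cell markers were below 0 in 6 of 6, with a median of -0.79 and sums of 87.8 and 132.5, INSL3 being brightest. Sertoli cell markers were below 0 in 6 of 6 detected, out of 7 on the array and 8 listed, with a median of -0.99 and sums of 131.5 and 208.0, CLU being brightest and INHBB not well above background. Peritubular and smooth muscle markers were below 0 in 6 of 6, with a median of -0.77 and sums of 36.4 and 60.4, ACTA2 being brightest. Skeletal or heart muscle markers had 7 of 8 detected and a median of -0.58 by measured values, or -0.14 with TNNT2 at its bound. The Zebu signal of TNNT2, -5.86, lay below the crossbred bound of -5.78, so the bound does not set its direction. The summed signal of the list was 24.8 in Zebu testis and 0.508 times that in crossbred testis, TNNI3 was brightest, and MYL2 was not well above background. Macrophage markers had a median of 0.20 over 5 genes and sums of 17.9 and 9.32. CD14 was brightest on average and in Zebu testis, and AIF1 in crossbred testis. AIF1 was at 3.09 in crossbred and 1.14 in Zebu testis, a difference of 1.95 from 1 probe, and most of the gap between the sums comes from it. The differences were 0.56 for CD14, 0.20 for CD68 and -0.19 for CSF1R. CD163 was well above background in Zebu testis only. The part of these cell types in the differences of the oxidative phosphorylation genes, the testis isoforms included, was not tested.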

How the data were processed

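Testis RNA of 3 crossbred and 3 Zebu bulls was pooled by group and measured on 1 array each. Per the file headers, the authors deposited the processed signal of Feature Extraction 11.5, an intensity after background subtraction and detrending, with no normalization between arrays. The authors also deposited log2 values with the 75th percentile of each array subtracted. Their column medians were -3.00 and -3.01, and each column followed the scanner values of its own array across probes (r of 0.999 and 1.00), so scale, centring and direction were settled.

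Control spots and 13 outlier spots were not used. No spot was saturated. The median signal was 126 and 129 on the crossbred and Zebu arrays, and 72.0% and 74.3% of spots were well above background. Spots of the same probe were averaged as log2 processed signal, and each array was centred on the 75th percentile of its probes. The probe that was brightest on average over both arrays stood for a gene, and detected means well above background on at least 1 array. To pass a threshold, a gene had to be well above background on its brighter array. Counts past a threshold use the measured values, also where the dimmer array was not well above background. For list medians, such a dim value was raised to the lowest signal well above background as a bound.

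Genes named are the isoform families, the catalytic subunits, the 2 highest and 2 lowest differences in each complex, and members with a spot in a marked patch. Examples from other lists, and genes singled out for discordant probes, were chosen after their values were seen. Members and lists were chosen with earlier results of these data known. All 91 names matched the ARS-UCD2.0 gene table, 18 under a newer symbol. Alternatives were other scalings, normexp with an offset of 50, other probe rules, filters and thresholds, and patches or non-subunits left out. The steps were tested on simulated arrays with known changes put into 200 genes. Noise there was smaller than between the real replicate spots, and no patch was put in. Changes as small as most differences described here were not simulated. Python 3.11.15, numpy 2.4.6, pandas 2.3.3, R 4.3.3 and limma 3.58.1 were used.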

Additional observations from a re-analysis of the deposited data

How the results depend on the processing

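No paired analysis was possible because each group has 1 array, and for the same reason no array could be left out in turn. The median over all members, 0.07, turned sign under quantile normalization (-0.09) and with every probe as 1 feature (-0.005). That of complex IV did so under quantile normalization (-0.04) and with the mean of all probes (-0.09), and that of complex V under quantile normalization (-0.12) and with every probe as 1 feature (-0.02). The median over all detected names was -0.06 on the main scale and -0.08 under quantile normalization. Measured from that background, the median of complex IV was 0.16 on the main scale and 0.04 under quantile normalization. For complex V these values were 0.12 and -0.04. The SD between spots, 0.33, served as the bound for calling a value moved, and it is wide for a median over many genes. The value for cytochrome c moved to -1.39 with the mean of all probes, or with every probe as 1 feature, since both take in the probe in the dark patch. The median of the names that are not subunits moved to 0.064 with every probe as 1 feature. At a log2 difference of 1.5, where no member passed, 1 gene was lower with the mean of all probes, 2 probes were lower with every probe as 1 feature, and 1 gene was lower when each gene was read from its probe with the highest Zebu signal. That last alternative was chosen after seeing the data. At a log2 difference of 1, there was 1 gene higher and 1 lower. The counts at a linear fold of 1.5, 7 higher and 6 lower, became 3 and 11 under quantile normalization and 17 and 19 with every probe as 1 feature. The causes of the shifts under quantile normalization were not tested. Of 46 single genes named by the rule, values moved by more than 0.33 for NDUFA10 (-2.48 with the mean of probes, -4.77 by the highest Zebu signal), CYCS (-1.39) and NDUFAF4 (-0.63 under normexp). None of the 13 members past a linear fold of 1.5 changed sign under the alternatives that give 1 value a gene. Filters on dim probes changed no value, since all members were well above background on both arrays.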
